A study of Mus musculus with 4 samples.

Results

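The Myc, Max and Mxd network genes are the genes for 10 related transcription factors, and they were taken by symbol from the deposited table, in which all 10 were found among 26026 genes. The members are Myc, Mycn, Mycl, Max, Mxd1, Mxd3, Mxd4, Mxi1, Mnt and Mlx. Polyadenylated RNA was sequenced from mouse bone marrow cells cultured with 100 ng/mL of Flt3 ligand, a growth factor for dendritic cell precursors. The 4 libraries were Nfkb1-/- (C57/B16) cells at day 5, wild-type (C57/B16) cells at day 5, Nfkb1-/- cells at day 3 and wild-type cells at day 3, with 1 library in each group. The cultures received new medium at day 3, and the number of mice behind a library is not given in the sources used here. Nfkb1 encodes p105 and its processed form p50, a subunit of the NF-kB transcription factors, and the series addresses how p50 and RelA act together in this differentiation.

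Myc proteins bind the DNA motif called the E-box as pairs with Max and activate genes for growth, ribosome production and cell division. Mxd proteins, Mxi1 and Mnt pair with the same partner, Max, bind the same motif and recruit Sin3 and histone deacetylases, which repress transcription. Mlx is a parallel partner that pairs with some of these antagonists and with the glucose-responsive Mondo proteins. In blood cell development Myc is known for proliferating progenitors, Mxd1 for granulocytes that leave the cell cycle, and Mycl, in the mouse, for dendritic cells.

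The core E-box is CACGTG, which reads the same on both strands. It was searched in the RefSeq windows (build GRCm38.p6) that run from 250 bases before to 50 bases after each gene's start. Windows were at hand for 9 of the 10 members, Myc being the exception, and 4 of these 9 members held the motif. It was present in 7.15% of all 32851 windows, and in 11.9% of the 9051 matched genes that averaged 1 RPKM or more. The stretches of the 4 members are shown because they are where the network's own motif lies beside its own genes, and a 5th is added for Hspd1, a target gene described further on. Counted from the start site, the motif began at -3 in Max, -40 in Mlx, -123 in Mnt, -219 in Mxd4 and -80 in 1 of the 2 windows of Hspd1. Capitals mark the motif, and each line runs 5′ to 3′ on the gene's strand.
Max, chr12:76962216-76962281, minus strand: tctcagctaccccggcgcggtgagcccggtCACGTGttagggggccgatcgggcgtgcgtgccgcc
Mlx, chr11:101087220-101087285, plus strand: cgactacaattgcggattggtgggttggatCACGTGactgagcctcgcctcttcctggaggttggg
Mnt, chr11:74830771-74830836, plus strand: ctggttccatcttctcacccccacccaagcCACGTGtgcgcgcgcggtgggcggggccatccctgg
Mxd4, chr5:34187894-34187959, minus strand: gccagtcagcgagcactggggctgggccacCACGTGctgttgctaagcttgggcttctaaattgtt
Hspd1, chr1:55088288-55088353, minus strand: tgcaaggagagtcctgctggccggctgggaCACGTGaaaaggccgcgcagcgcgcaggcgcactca
The windows of Mycn, Mycl, Mxd1, Mxd3 and Mxi1 did not hold these letters. The NF-kB consensus, searched on both strands, was found in the window of Mycn and in no window of the other 8 matched members, against 12.0% of the matched genes that averaged 1 RPKM or more.

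Totals of 15255070 to 16215214 reads per library were recovered from the RPKM values (reads per kilobase of transcript, scaled to library size). Nfkb1 (NM_008689) stood at 64.7 RPKM in the knockout and 114 RPKM in wild type at day 5, and at 56.0 RPKM in the knockout and 74.8 RPKM in wild type at day 3. Both libraries labelled knockout thus had less of it, and it was not absent, and whether the remaining RNA carries the disruption cannot be read from a value per gene. All 16 listed markers of conventional dendritic cells averaged 1 RPKM or more over the 4 libraries, and so did all 12 markers of late neutrophils. RNA of both was therefore present in the set, though a mean does not show each marker in each culture. Itgae and Zbtb46, both dendritic cell markers, were at 0.545 and 0.575 RPKM in the knockout at day 3. In bulk RNA, fewer cells of a type and less RNA per cell cannot be told apart. With 1 library per group no difference below has a replicate check, and no p-value is given. Differences are log2 differences of RPKM + 1. A gene passed the size rule where this difference was 1 or more, up or down, among the 11786 genes that averaged 1 RPKM or more and are called measured. Ratios are ratios of RPKM with exact 95% intervals of the recovered reads, which cover counting error only.

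Of the 10 members, 9 averaged 1 RPKM or more, and Mycn was the exception. Between the genotypes Myc was higher in the knockout, at day 5 and at day 3, Mycl and Mxd1 were lower at both days, Mxd4 and Mxi1 were lower at day 5, and Mnt was nearly level. By the size rule, 0 of the 9 members were higher and 2 lower in the knockout at day 5, where 1.16% of all measured genes were higher and 3.22% lower. At day 3, 0 members were higher and 0 lower, where 0.976% of all measured genes were higher and 0.882% lower. The members past the rule at day 5 were Mycl and Mxd1. For day 5 against day 3, 0 members were higher and 2 lower in the knockout, namely Mxd1 and Mxi1, against 0.594% and 3.01% of all measured genes. With a pseudocount of 0.1 RPKM Mycl also passed upward there (1.16). In wild type 1 member was higher, Mycl, and 1 lower, Mxd1, against 1.8% and 2.05% of all measured genes. The genotype difference changed by at least 1 between the days for 0 members, where it became higher for 1% and lower for 2.63% of all measured genes. Over all measured genes, 115 passed upward and 104 downward between the genotypes at day 3, which became 70 and 157 after rescaling by the median ratio and 81 and 125 after rescaling to the same sum of RPKM. For day 5 against day 3 in wild type 212 were higher and 242 lower, which became 145 and 348 after rescaling by the median ratio. For the change of the genotype difference 118 were higher and 310 lower, which became 151 and 214 by the median ratio and 141 and 229 by the same sum. The comparisons between days use the same 4 libraries as those between genotypes and are not independent of them.

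**Figure D1:**
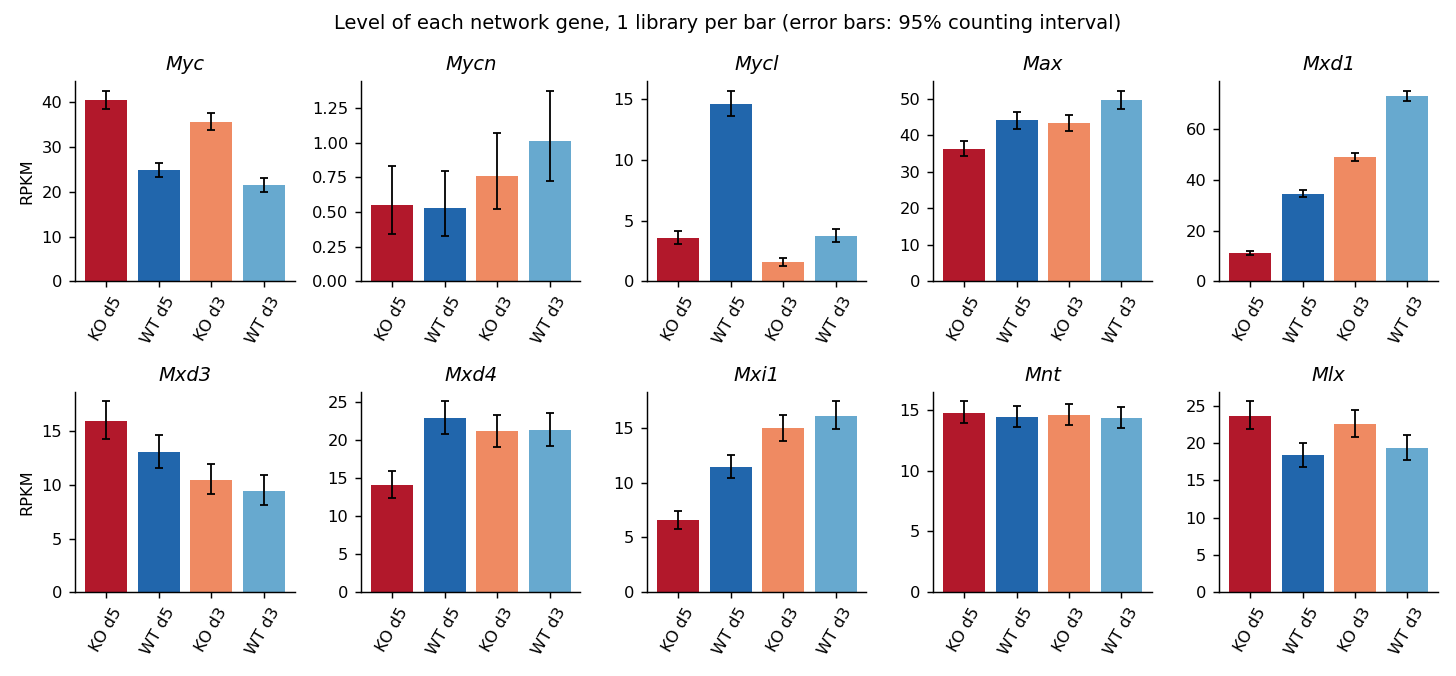
RPKM of the 10 network genes in the 4 libraries (KO, Nfkb1-/-; WT, wild type; d5 and d3, days of culture), with bars for single libraries and 95% counting intervals of the reads. Myc is higher in both KO libraries, Mycl stands out at 14.7 RPKM in WT at day 5, Mxd1 runs from 11.0 RPKM in KO at day 5 to 73.2 RPKM in WT at day 3, and Mnt stays between 14.4 and 14.8 RPKM.

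Myc (NM_001177354), the most widely used activator of the family, stood at 40.4 RPKM in the knockout and 24.8 RPKM in wild type at day 5. At day 3 it stood at 35.6 RPKM in the knockout and 21.4 RPKM in wild type. Both knockout libraries thus lay above both wild-type libraries, and the knockout value at day 3 exceeded the wild-type value at day 5. The knockout over wild-type ratio at day 5 was 1.63 (1.50 to 1.77) and 1.66 (1.52 to 1.82) at day 3, so the genotype ratio hardly moved between the days. The ratio at day 5 divided by that at day 3 was 0.978 (0.868 to 1.10, counting error on the log scale), and on the log2 scale the change of the genotype difference was -0.03, or 0.11 after median ratio rescaling. By median ratio rescaling the log2 difference of Myc at day 3 was 0.55, outside its counting interval. As deposited, the log2 differences of 0.68 at day 5 and 0.71 at day 3 missed the size rule. Absolute differences at least as large were not rare: 10.8% of all measured genes exceeded that of Myc at day 5 and 5.68% at day 3. Listed markers of stem and early progenitor cells summed to 114.5 RPKM in the knockout and 113.4 RPKM in wild type at day 5, and to 101.9 RPKM in the knockout and 67.8 RPKM in wild type at day 3. Cd34 had the highest level of them, at 77.1 RPKM in the knockout and 73.9 RPKM in wild type at day 5. The 7 measured went both ways at day 5, 4 above 0 and 3 below, from Gata2 (-1.16) to Egfl7 (1.38). At day 3, 5 were above and 2 below, where 51.2% and 66.6% of all measured genes lay above 0 at day 5 and day 3. The part of these markers in the result for Myc was not tested. Between the days Myc differed little, with ratios of day 5 to day 3 of 1.13 (1.05 to 1.22) in the knockout and 1.16 (1.05 to 1.28) in wild type. After median ratio rescaling the log2 difference between the days in wild type was 0.040, against 0.20 as deposited, and so lay outside its counting interval.

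Mycl (NM_001303121), the family member known in dendritic cells, had the widest relative range of the network. It stood at 3.62 RPKM in the knockout and 14.7 RPKM in wild type at day 5, and at 1.57 RPKM in the knockout and 3.77 RPKM in wild type at day 3. The recovered reads behind these values were 184 in the knockout and 780 in wild type at day 5, and 84 in the knockout and 190 in wild type at day 3. The wild-type library at day 5 stood above the other 3, and the knockout at day 5 was close to wild type at day 3. The knockout over wild-type ratio at day 5 was 0.247 (0.209 to 0.290) and 0.416 (0.318 to 0.540) at day 3. Its log2 difference at day 5 was -1.76, and 0.687% of all measured genes had a larger absolute difference. At day 3 the log2 difference was -0.89, and it passed the size rule with a pseudocount of 0.1 RPKM (-1.21) or with libraries rescaled by their median ratio (-1.02), and missed it with a pseudocount of 5 RPKM (-0.42) or the same sum of RPKM (-0.95). The ratio of day 5 to day 3 was 2.31 (1.77 to 3.02) in the knockout and 3.89 (3.31 to 4.58) in wild type. The genotype ratio at day 5 was 0.594 times that at day 3 (0.438 to 0.804).

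Markers of conventional dendritic cells moved with Mycl. Of the 16 markers, 15 were lower in the knockout at day 5, 13 of them by the size rule, and 14 were lower at day 3, with 0 past the rule. Among the 13, Itgae averaged 1 RPKM or more only through wild type at day 5 (4.23 RPKM), so its place there is not independent of that library. Over all measured genes, 3.22% were lower by the size rule at day 5 and 0.882% at day 3, while 51.2% and 66.6% lay above 0. The summed level of the 16 was 1983 RPKM in the knockout and 4623 RPKM in wild type at day 5, and 1723 RPKM in the knockout and 2876 RPKM in wild type at day 3. None of the 16 was at the value of 1 read in all libraries. The sum was therefore 0.429 times wild type at day 5 and 0.599 times at day 3, a smaller gap than that of Mycl at either day. Per 1000 RPKM of these markers Mycl stood at 1.83 RPKM in the knockout and 3.17 RPKM in wild type at day 5, and at 0.911 RPKM in the knockout and 1.31 RPKM in wild type at day 3. Cd74, H2-Aa and H2-Ab1 had the highest levels of the 16 in each library and weigh most in the sum. In wild type at day 5 they stood at 1830, 1187 and 933 RPKM. Mycl over Clec9a, the marker most like it (below), was 0.567 in the knockout and 0.591 in wild type at day 5. At day 3 that ratio was 0.466 in the knockout and 0.537 in wild type. Megakaryocyte markers also had their highest sum in wild type at day 5, with 370.0 RPKM in the knockout and 807 RPKM in wild type at day 5, and 384 RPKM in the knockout and 333 RPKM in wild type at day 3. All 8 of them were lower in the knockout at day 5, 5 by the size rule, while 2 of 8 were lower at day 3. Plasmacytoid dendritic cell markers, and mast cell and basophil markers (below), also had their highest sum in wild type at day 5. The plasmacytoid markers summed to 433 RPKM in the knockout and 576 RPKM in wild type at day 5. At day 3 they summed to 548 RPKM in the knockout and 523 RPKM in wild type. Of these 10, 8 were lower in the knockout at day 5, 3 by the size rule, and 7 at day 3. The part of these marker groups in the result for Mycl was not tested.

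The genes whose values were most like those of Mycl over the 4 libraries were Clec9a, a lectin receptor of cross-presenting dendritic cells, Xcr1, a chemokine receptor of the same cells, and Itgax, the integrin CD11c. Likeness was the Euclidean distance between log2 values centred on their mean, among 7701 named genes that averaged 5 RPKM or more, and these distances were 0.07, 0.24 and 0.30. Mycl and Xcr1 passed that minimum only through wild type at day 5, where they stood at 14.7 and 14.2 RPKM. Their likeness is therefore not independent of that library. Clec9a stood at 6.39 RPKM in the knockout and 24.8 RPKM in wild type at day 5, and at 3.37 RPKM in the knockout and 7.02 RPKM in wild type at day 3. All 3 genes were among the dendritic cell markers listed for this work. The genes most like Myc were Cdca7 (distance 0.03), a cell division cycle-associated gene, Dnph1 (0.04), a nucleotide hydrolase, and Srp19 (0.05), a subunit of the signal recognition particle. Many genes shared the profile of Myc: 273 of the 7701 lay within a distance of 0.25, against 2 for Mycl and 8 for Mxd1.

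Mycn (NM_008709), the member known from neural and early progenitor cells, had the lowest level of the network in each library. It stood at 0.550 RPKM in the knockout and 0.526 RPKM in wild type at day 5 on 22 reads each, and at 0.760 RPKM in the knockout and 1.01 RPKM in wild type at day 3 on 32 and 40 reads. Its knockout over wild-type ratio at day 5 was 1.05 (0.553 to 1.98) and 0.753 (0.458 to 1.23) at day 3, so no genotype difference was detectable at this depth. The ratio of day 5 to day 3 was 0.724 (0.401 to 1.29) in the knockout and 0.521 (0.295 to 0.897) in wild type.

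Max (NM_001361664), the obligate partner, ranked 1st or 2nd among the members in each library, and its highest value was 1.37 times its lowest. It stood at 36.3 RPKM in the knockout and 44.0 RPKM in wild type at day 5, and at 43.3 RPKM in the knockout and 49.7 RPKM in wild type at day 3. The knockout over wild-type ratio at day 5 was 0.825 (0.763 to 0.891) and 0.872 (0.812 to 0.937) at day 3. Max thus ran opposite to Myc between the genotypes, by a smaller amount. Its log2 difference at day 3 was -0.19 as deposited and -0.36 after median ratio rescaling, which lay outside its counting interval. Mlx (NM_001159384), the parallel partner, stood at 23.7 RPKM in the knockout and 18.3 RPKM in wild type at day 5, and at 22.6 RPKM in the knockout and 19.4 RPKM in wild type at day 3. Its knockout over wild-type ratio at day 5 was 1.29 (1.15 to 1.45) and 1.17 (1.04 to 1.31) at day 3. On the log2 scale the difference at day 3 was 0.21, and 0.05 after median ratio rescaling. By the reference annotation an exon of Mlx overlaps one of Psmc3ip on the opposite strand. Psmc3ip stood at 15.6 RPKM in the knockout and 9.51 RPKM in wild type at day 5, and at 10.5 RPKM in the knockout and 6.41 RPKM in wild type at day 3. Reads of such overlaps cannot be told apart where strand was not used.

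Mxd1 (NM_010751), the antagonist known from maturing granulocytes, had the widest range in RPKM. It stood at 11.0 RPKM in the knockout and 34.5 RPKM in wild type at day 5, and at 48.9 RPKM in the knockout and 73.2 RPKM in wild type at day 3. Its lowest value was in the knockout at day 5 and its highest in wild type at day 3, 6.63 times apart. The knockout over wild-type ratio at day 5 was 0.320 (0.295 to 0.347) and 0.668 (0.641 to 0.697) at day 3. The log2 difference was -1.56 at day 5, exceeded in absolute size by 1.04% of all measured genes, and -0.57 at day 3. The difference at day 3 became -0.74 by the median ratio and -0.66 by the same sum of RPKM, both outside its counting interval. The ratio of day 5 to day 3 was 0.226 (0.209 to 0.244) in the knockout and 0.472 (0.450 to 0.494) in wild type, and the log2 difference in wild type, -1.06, fell short of the size rule with a pseudocount of 5 RPKM (-0.98). The genotype ratio at day 5 was 0.479 times that at day 3 (0.437 to 0.524).

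Late neutrophil markers moved with Mxd1. All 12 were lower in the knockout at day 5, 11 of them by the size rule, and all 12 were lower at day 3, with 1 past the rule. Over all measured genes, 3.22% were lower by the size rule at day 5 and 0.882% at day 3, while 51.2% and 66.6% lay above 0. Their summed level was 2996 RPKM in the knockout and 13890 RPKM in wild type at day 5, and 24144 RPKM in the knockout and 34299 RPKM in wild type at day 3. None of the 12 was at the value of 1 read in all libraries. The sum was 0.216 times wild type at day 5 and 0.704 times at day 3, so Mxd1 differed less than this sum at day 5. S100a9, S100a8 and Ngp weigh most in the sum, at 5325, 3687 and 1969 RPKM in wild type at day 5. Log2 differences of the 12 at day 5 ran from Olfm4 (-3.35) to Mmp8 (-0.80), and that of Mmp8 was smaller in size than that of Mxd1 (-1.56). Per 1000 RPKM of these markers Mxd1 stood at 3.69 RPKM in the knockout and 2.49 RPKM in wild type at day 5, and at 2.03 RPKM in the knockout and 2.13 RPKM in wild type at day 3. Primary granule and neutrophil precursor markers did not follow between the genotypes. They summed to 434 RPKM in the knockout and 403 RPKM in wild type at day 5, and to 964 RPKM in the knockout and 716 RPKM in wild type at day 3. Of these 8, 3 were above 0 and 5 below at day 5, 3 of them past the size rule downward, and 5 were above and 3 below at day 3. All 8 were lower at day 5 than at day 3 in each genotype. Between these days 56.1% of all measured genes lay above 0 in the knockout and 69.3% in wild type. Other groups were also lower in the knockout at day 5. Mast cell and basophil markers summed to 52.5 RPKM in the knockout and 265 RPKM in wild type at day 5, and to 179 RPKM in the knockout and 217 RPKM in wild type at day 3. All 8 measured were lower in the knockout at day 5, 7 by the size rule, and 5 of 8 at day 3. In wild type, unlike Mxd1, 5 of these 8 were higher at day 5 than at day 3. B cell markers summed to 129 RPKM in the knockout and 218 RPKM in wild type at day 5. At day 3 they summed to 380.0 RPKM in the knockout and 407 RPKM in wild type. All 10 measured were lower at day 5 than at day 3 in each genotype, against the same shares of all measured genes. Among the 10, Cr2 averaged 1 RPKM or more only through wild type at day 3 (2.98 RPKM). Its fall in wild type is therefore not independent of that library. Erythroid markers summed to 59.7 RPKM in the knockout and 72.5 RPKM in wild type at day 5. At day 3 they summed to 106 RPKM in the knockout and 289 RPKM in wild type. Of these, Tfrc stood at 50.3 RPKM in the knockout and 47.4 RPKM in wild type at day 5. T and NK cell markers summed to 7.33 RPKM in the knockout and 22.5 RPKM in wild type at day 5. At day 3 they summed to 19.2 RPKM in the knockout and 40.1 RPKM in wild type. The part of these marker groups in the result for Mxd1 was not tested. The genes most like Mxd1 were Crispld2 (distance 0.07), a secreted protein gene, Dhrs9 (0.14), a short-chain dehydrogenase, and Alox15 (0.16), a lipoxygenase.

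**Figure D2:**
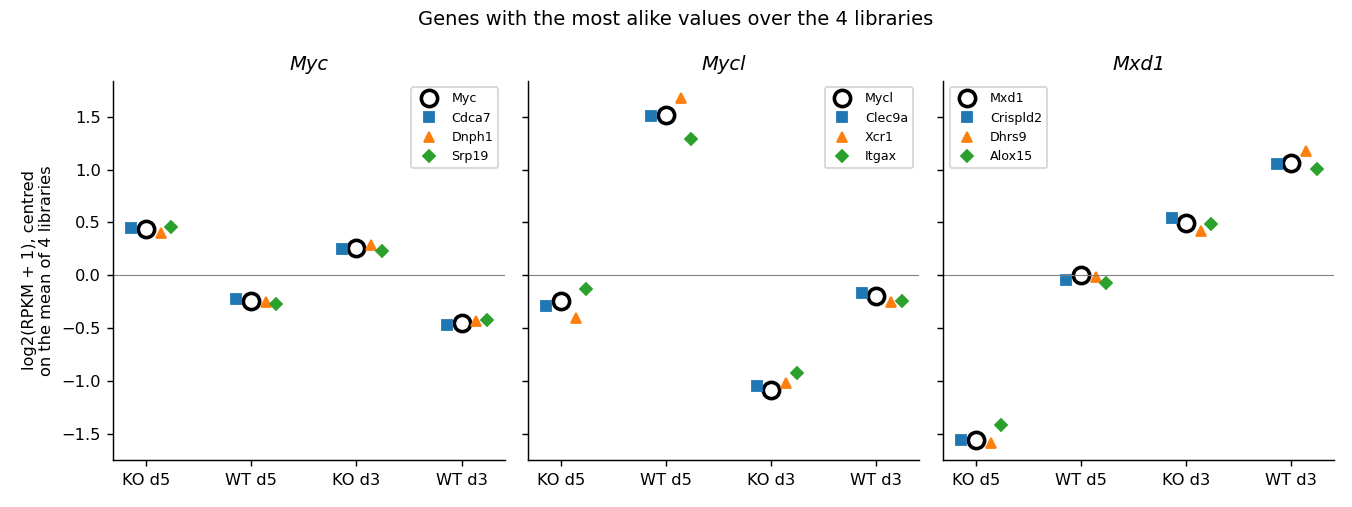
Log2(RPKM + 1) centred on the mean of the 4 libraries for Myc, Mycl and Mxd1 (open circles) and the 3 genes with the smallest distance to each (filled symbols, shifted sideways for sight; KO, Nfkb1-/-; WT, wild type; d5 and d3, days). Clec9a lies at a distance of 0.07 from Mycl, and Crispld2 lies at 0.07 from Mxd1.

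The remaining antagonists split into members that were lower in the knockout at day 5 and members that were not. Mxi1 (NM_001360348) stood at 6.57 RPKM in the knockout and 11.5 RPKM in wild type at day 5, and at 14.9 RPKM in the knockout and 16.1 RPKM in wild type at day 3. Its knockout over wild-type ratio at day 5 was 0.573 (0.491 to 0.668) and 0.927 (0.829 to 1.04) at day 3, so that only the interval at day 5 left out 1. The ratio of day 5 to day 3 was 0.439 (0.379 to 0.509) in the knockout and 0.711 (0.630 to 0.803) in wild type. The log2 difference in the knockout, -1.08, fell short of the size rule with a pseudocount of 5 RPKM (-0.79) and after rescaling to the same sum of RPKM (-0.99).

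Mxd4 (NM_010753), an antagonist of differentiating cells, stood at 14.05 RPKM in the knockout and 22.8 RPKM in wild type at day 5, and at 21.1 RPKM in the knockout and 21.3 RPKM in wild type at day 3. The knockout library at day 5 stood apart from the other 3, which lay between 21.1 and 22.8 RPKM. Its knockout over wild-type ratio at day 5 was 0.615 (0.525 to 0.719) and 0.992 (0.861 to 1.14) at day 3. The genotype ratio at day 5 was 0.620 times that at day 3 (0.503 to 0.763) for Mxd4 and 0.618 times (0.512 to 0.745) for Mxi1. After median ratio rescaling the log2 difference at day 3 was -0.17 for Mxd4 and -0.26 for Mxi1, against -0.01 and -0.10 as deposited, and that of Mxi1 then lay outside its counting interval. At day 5 the rescaled differences were -0.68 for Mxd4 and -0.74 for Mxi1, so under either scaling both genes had the larger genotype gap at day 5.

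Mxd3 (NM_016662), the antagonist known from cells in S phase, ran the other way. It stood at 16.0 RPKM in the knockout and 13.1 RPKM in wild type at day 5, and at 10.5 RPKM in the knockout and 9.44 RPKM in wild type at day 3. Its ratio of day 5 to day 3 was 1.52 (1.28 to 1.81) in the knockout and 1.38 (1.14 to 1.67) in wild type, and it was the 1 antagonist with intervals above 1 in both genotypes. The knockout over wild-type ratio at day 5 was 1.22 (1.04 to 1.44) and 1.11 (0.911 to 1.36) at day 3, and the log2 difference at day 3 turned to -0.01 after rescaling by the median ratio. An exon of Mxd3 overlaps one of Prelid1 on the opposite strand by the reference annotation. Prelid1 stood at 165 RPKM in the knockout and 117 RPKM in wild type at day 5, and at 148 RPKM in the knockout and 106 RPKM in wild type at day 3, and whether its reads enter the value of Mxd3 was not tested.

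Mnt (NM_010813), the antagonist that most cells express throughout, hardly differed. It stood at 14.8 RPKM in the knockout and 14.5 RPKM in wild type at day 5, and at 14.6 RPKM in the knockout and 14.4 RPKM in wild type at day 3. Its highest value was 1.03 times its lowest, and each of its 4 ratios had an interval that included 1. The knockout over wild-type ratio at day 5 was 1.02 (0.939 to 1.12) and 1.02 (0.932 to 1.11) at day 3. Rescaling by the median ratio turned its log2 difference at day 3 from 0.02 to -0.14.

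**Figure D3:**
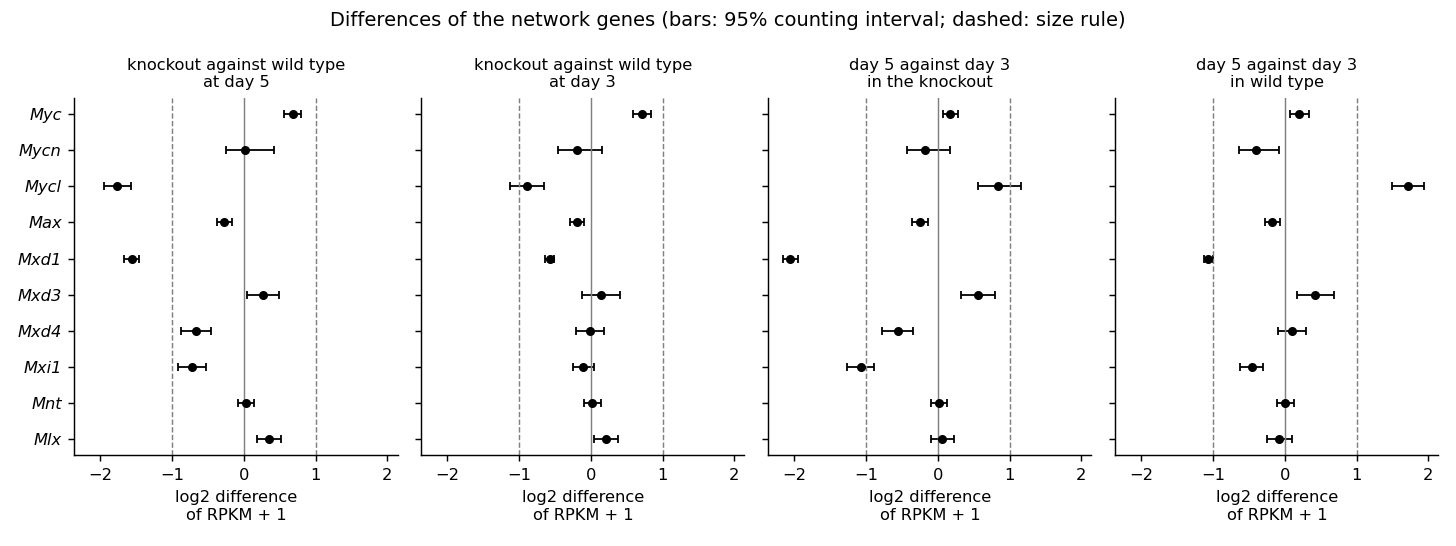
Log2 difference of RPKM + 1 (horizontal axis) of each network gene in the 4 comparisons, with bars for the 95% counting interval, a solid line at 0 and dashed lines at the size rule of 1. Mycl and Mxd1 lie past the rule at day 5 between the genotypes (-1.76 and -1.56), and Myc lies at 0.68 and 0.71 at day 5 and day 3.

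The order of the members by level differed between the libraries. RPKM is per length, so levels can be set side by side, except that the length recovered for Mxd4 (1179 bases) was far below that of its reference transcript (3872 bases), and its level relative to other genes is uncertain. In the knockout at day 5 Myc led with 40.4 RPKM, followed by Max with 36.3 RPKM, and their counting intervals overlapped. Below them came Mlx, then Mxd3, Mnt and Mxd4, whose neighbouring intervals overlapped, then Mxd1, Mxi1, Mycl and Mycn. In wild type at day 5 Max led with 44.0 RPKM, followed by Mxd1 with 34.5 RPKM, and then by Myc and Mxd4, which overlapped. Mlx, Mycl, Mnt, Mxd3, Mxi1 and Mycn came after these, and each neighbouring interval from Mycl to Mxi1 overlapped. At day 3 Mxd1 led in the knockout and in wild type, with Max in 2nd and Myc in 3rd place, and with Mycl and Mycn last. Mxd1 thus held 7th place in the knockout at day 5, against 2nd place in wild type at day 5 and 1st place in both genotypes at day 3.

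Summed by role, the Myc family (Myc, Mycn and Mycl) came to 44.6 RPKM in the knockout and 40.02 RPKM in wild type at day 5, and to 38.0 RPKM in the knockout and 26.2 RPKM in wild type at day 3. The 5 antagonists (Mxd1, Mxd3, Mxd4, Mxi1 and Mnt) came to 62.4 RPKM in the knockout and 96.3 RPKM in wild type at day 5, and to 110.1 RPKM in the knockout and 134 RPKM in wild type at day 3. The ratio of the Myc family to the antagonists was 0.715 in the knockout and 0.415 in wild type at day 5, and 0.345 in the knockout and 0.195 in wild type at day 3. It was thus 1.72 times wild type in the knockout at day 5 and 1.77 times at day 3, and 2.07 times as high at day 5 as at day 3 in the knockout and 2.13 times in wild type. The level of Mxd4 in these sums is uncertain, as given above. Without Mxd4, a choice made after seeing the data, the ratio was 0.922 in the knockout and 0.545 in wild type at day 5, and 0.427 in the knockout and 0.232 in wild type at day 3. These are sums of RNA levels and say nothing of protein.

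The genotype gap in this ratio was made up differently at the 2 days. The Myc family sum in the knockout was 1.11 times wild type at day 5 and 1.45 times at day 3, while the antagonist sum was 0.648 times wild type at day 5 and 0.819 times at day 3. At day 5 the higher Myc of the knockout was largely offset in the family sum by its lower Mycl. Mycl made up 8.11% of the family sum in the knockout and 36.6% in wild type at day 5, and 4.13% in the knockout and 14.4% in wild type at day 3. Mxd1 made up 17.7% of the antagonist sum in the knockout and 35.8% in wild type at day 5, and 44.4% in the knockout and 54.5% in wild type at day 3. Without Mxd4 in the sum its share was 22.8% in the knockout and 47.0% in wild type at day 5, and 55.0% in the knockout and 64.7% in wild type at day 3. Without Mxd1 the antagonists came to 51.4 RPKM in the knockout and 61.8 RPKM in wild type at day 5, and to 61.2 RPKM in the knockout and 61.2 RPKM in wild type at day 3. At day 3 the genotype gap of the antagonists was therefore almost that of Mxd1.

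**Figure D4:**
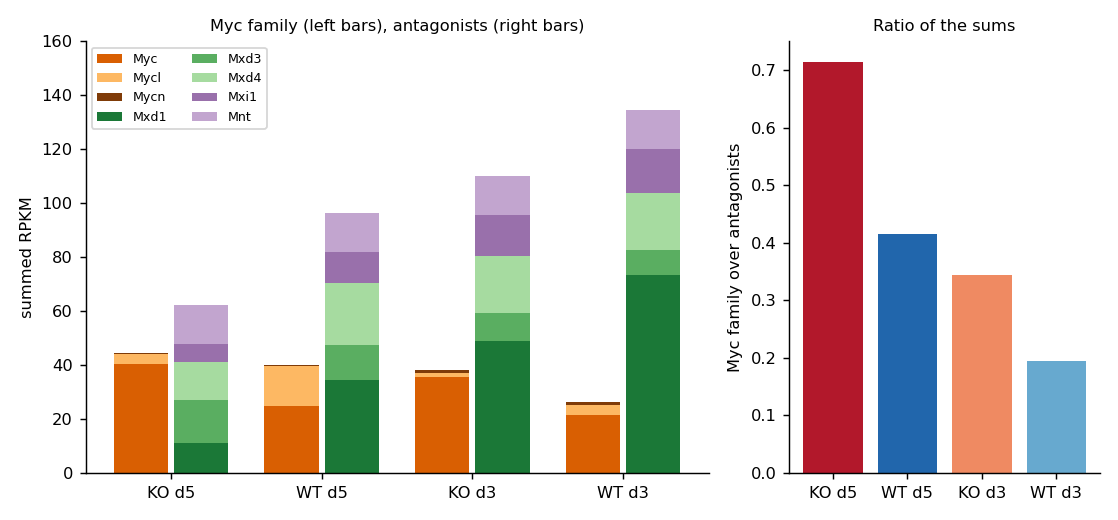
Left, summed RPKM of the Myc family (left bar of each pair) and of the 5 antagonists (right bar), stacked by gene, in the 4 libraries (KO, Nfkb1-/-; WT, wild type; d5 and d3, days). Right, the ratio of the 2 sums, at 0.715 and 0.415 in KO and WT at day 5 and 0.345 and 0.195 in KO and WT at day 3.

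The 4 members whose windows held CACGTG (Max, Mlx, Mnt and Mxd4) varied less over the libraries than the 5 whose windows did not. Their highest value was between 1.03 and 1.63 times their lowest, against between 1.69 and 9.34 times for Mycn, Mycl, Mxd1, Mxd3 and Mxi1. This describes 9 genes and was noticed after their values were seen. Mxd4 (1.63) and Mxd3 (1.69) lay close together across the split, and the value of Mycn (1.92) rests on 22 to 40 reads per library.

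Genes known to be activated by Myc were higher in the knockout at both days. This list, like the others below, was chosen with earlier results of these data known, so its counts are a description and no independent check. Of the 50 listed, all averaged 1 RPKM or more and all lay above 0 at day 5 and at day 3, where 51.2% of all measured genes lay above 0 at day 5 and 66.6% at day 3. Their median log2 difference was 0.61 at day 5 and 0.66 at day 3, against 0.01 and 0.13 over all measured genes. Of the 50, 6 passed the size rule upward at day 5 and 3 at day 3, with 0 downward, against the shares of all genes given above. At least 0.5 was reached at both days by 29 of the 50, or 58.0%, against 3.88% of all measured genes. After rescaling by the median ratio, which removes the day 3 median of all genes, 50 of the 50 were above 0 at day 5 and 49 at day 3, while 4 passed the rule at day 5 and 0 at day 3. After rescaling to the same sum of RPKM 0 passed the rule at day 3. Markers of late neutrophils and of conventional dendritic cells were lower in the same knockout libraries, as given above, and their part in these values was not tested.

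At day 5 the largest differences of that list were those of Shmt2, Srm, Shmt1 and Hspd1. Shmt2, the mitochondrial serine hydroxymethyltransferase, stood at 63.5 RPKM in the knockout and 26.2 RPKM in wild type at day 5, a ratio of 2.42 (2.25 to 2.62). Srm, spermidine synthase, stood at 49.2 RPKM in the knockout and 20.9 RPKM in wild type at day 5, a ratio of 2.36 (2.10 to 2.64). Shmt1, the cytosolic enzyme, passed the rule at both days, with ratios of 2.31 (1.99 to 2.67) at day 5 and 2.24 (1.89 to 2.67) at day 3, though at day 3 not after either rescaling. Hspd1, the mitochondrial chaperone whose E-box is shown above, stood at 76.4 RPKM in the knockout and 35.6 RPKM in wild type at day 5, a ratio of 2.14 (2.01 to 2.29). At day 3 the amino acid transporter Slc7a5 had a ratio of 2.13 (1.95 to 2.34) and Nme2, a nucleotide kinase, one of 2.12 (1.88 to 2.39). Nme2 has the near-identical neighbour Nme1, so its reads may be split between the copies. Among the 43 listed genes with a window, 15 (34.9%) held CACGTG. Those 15 had median log2 differences of 0.58 at day 5 and 0.70 at day 3, and the 28 without it 0.61 and 0.63, so members with and without the motif lay close together.

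Between the days the same list was also higher, by less. Its median for day 5 against day 3 was 0.32 in the knockout and 0.35 in wild type, with 47 and 49 of 50 above 0 and 0 past the rule. Over all measured genes the medians were 0.04 and 0.16, and 56.1% and 69.3% lay above 0. The largest difference was that of Npm1, a nucleolar chaperone with processed copies elsewhere in the genome, in the knockout (0.68) and that of Fbl, the rRNA methyltransferase fibrillarin, in wild type (0.79). Next came Apex1, a DNA repair enzyme, at 0.67 in the knockout and Nme2 at 0.71 in wild type. In wild type 40 of the 50 were above 0 after rescaling by the median ratio, where the median of all measured genes was 0.01.

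**Figure D5:**
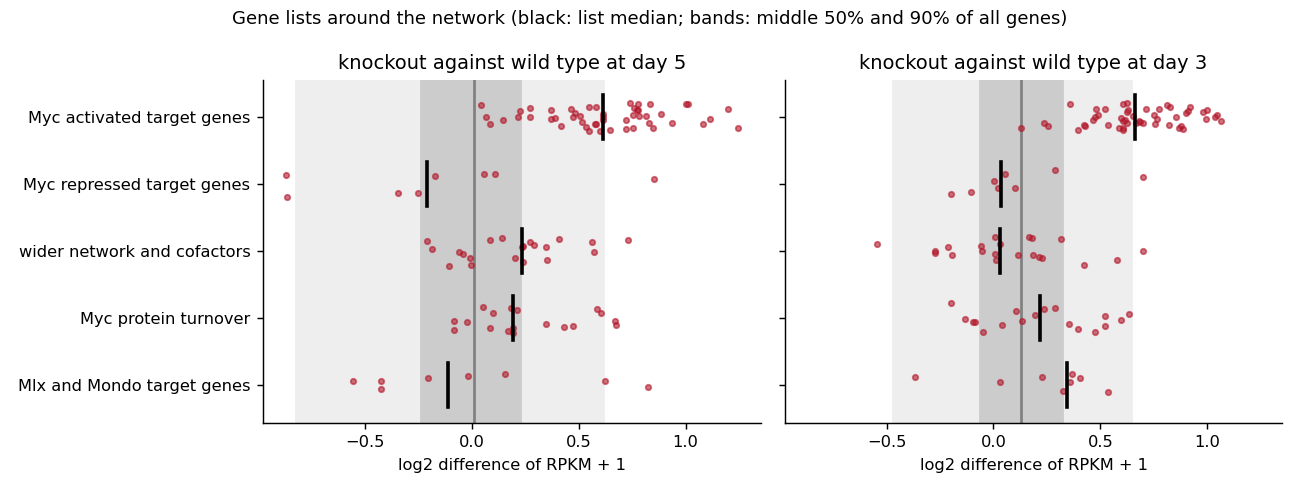
Log2 difference of RPKM + 1, knockout against wild type, of the measured genes of 5 lists (points), with the list median (black) and bands for the middle 50% and 90% of all measured genes. All 50 Myc activated genes exceed 0 in each comparison, around medians of 0.61 (day 5) and 0.66 (day 3). The lists were chosen with earlier results of these data known.

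Genes known to be repressed by Myc lay on both sides of 0. Of the 11 listed, 8 were measured, and 0 passed the size rule between the genotypes. Their median was -0.21 at day 5, with 3 above 0 and 5 below, and 0.04 at day 3, with 6 above and 2 below, where 51.2% and 66.6% of all measured genes lay above 0. After rescaling by the median ratio 2 of 8 were above 0 at day 3, with a median of -0.13. Cebpa, a regulator of granulocyte development, stood at 25.9 RPKM in the knockout and 48.0 RPKM in wild type at day 5, a log2 difference of -0.87. Gadd45a, a stress-induced growth regulator, stood at 6.95 RPKM in the knockout and 13.5 RPKM in wild type at day 5, a ratio of 0.513 (0.413 to 0.635). It was the 1 gene of the list past the rule in any comparison, at -1.25 for day 5 against day 3 in the knockout. Cdkn1a, the cell cycle inhibitor p21, went the other way, at 33.8 RPKM in the knockout and 18.3 RPKM in wild type at day 5 and at 27.4 RPKM in the knockout and 16.5 RPKM in wild type at day 3. Thbs1, a matrix glycoprotein, had a log2 difference of 0.29 at day 3, and Cdkn2c, a cell cycle inhibitor, one of 0.36 for day 5 against day 3 in wild type.

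Cofactors and other E-box factors differed little. Of the 23 listed, 21 were measured and 0 passed the size rule in the 4 comparisons. Their median was 0.23 at day 5 and 0.03 at day 3 between the genotypes, with 14 of 21 above 0 at each day, against 51.2% of all measured genes at day 5 and 66.6% at day 3. After rescaling by the median ratio 9 of 21 were above 0 at day 3, with a median of -0.13. Ruvbl2, an ATPase of chromatin complexes that binds Myc, had the largest difference at both days, with ratios of 1.67 (1.55 to 1.81) at day 5 and 1.65 (1.51 to 1.80) at day 3. Its partner Ruvbl1 had a ratio of 1.51 (1.35 to 1.69) at day 5, and Actl6a, an actin-related subunit of such complexes, one of 1.51 (1.38 to 1.66) at day 3. Kat2a, a histone acetyltransferase, and Mycbp2, a ubiquitin ligase that binds Myc, had the largest differences for day 5 against day 3 in the knockout, at 0.59 and 0.45. Actl6a and Mycbp, a Myc-binding protein, had those in wild type, at 0.58 and 0.53.

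Genes for the turnover of Myc protein also stayed under the size rule, with 0 of 18 past it in the 4 comparisons. Between the genotypes their median was 0.19 at day 5 and 0.22 at day 3, with 15 and 13 of 18 above 0. Over all measured genes the medians were 0.01 and 0.13, and 51.2% and 66.6% lay above 0. The largest differences were those of Set, a phosphatase inhibitor (0.67), and the mitotic kinase Plk1 (0.67) at day 5, and of the mitotic kinase Aurka (0.63) and the ubiquitin ligase Trim32 (0.59) at day 3. For day 5 against day 3 they were Skp2 (0.64) and Huwe1 (0.55), both ubiquitin ligases, in the knockout, and Cip2a (0.60), a phosphatase inhibitor, and Skp2 (0.39) in wild type.

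Targets of Mlx and its Mondo partners lay on both sides of 0. Between the genotypes 3 of 8 were above 0 at day 5 and 7 of 8 at day 3, or 6 of 8 at day 3 after either rescaling, against 51.2% and 66.6% of all measured genes as deposited. Of the 10 listed, 8 were measured and 0 passed the size rule in the 4 comparisons, with medians between the genotypes of -0.11 at day 5 and 0.34 at day 3. The fatty acid synthesis genes Acaca and Fasn differed by 0.82 and 0.62 at day 5, and Tkfc, a fructose pathway kinase, and Fasn by 0.54 and 0.41 at day 3. Txnip, the thioredoxin inhibitor that Mondo proteins control, stood at 88.0 RPKM in the knockout and 118 RPKM in wild type at day 5, and at 135 RPKM in the knockout and 115 RPKM in wild type at day 3. For day 5 against day 3, Txnip (-0.61) and Fasn (0.58) had the largest differences in the knockout, and Tkfc (0.48) and the zinc finger gene Klf10 (0.40) those in wild type. Of the Mondo genes themselves, Mlxip stood between 15.6 and 18.1 RPKM over the libraries. Mlxipl stood between 0.020 and 0.074 RPKM, on 1 to 4 reads.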

How the data were processed

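RPKM values made by the authors were used, per the file headers, with 1 row per gene and 1 column per library. The submitters' processing notes name mm9, HISAT2 and SAMtools. How reads were counted, with which annotation and on which strand, is not given in the sources used here. Each column name gives its library's genotype and day. Because the RPKM of a gene moves in steps of 1 read, library totals and reads of all 26026 genes were recovered from these steps (tolerance 0.003 reads). The reference transcript set the multiple for 591 genes, Mycn among them. No value is 0: genes without reads stand at 1 read, or 1 was added to all.

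Values were analysed as log2(RPKM + 1) with Python 3.11.15 and scipy 1.17.1, without further scaling. Procedures were tested on simulated data. The members and lists were chosen with earlier results of these data known. Genes named are the members, Nfkb1, up to 4 per list past the size rule in each comparison (otherwise 2), and the 3 genes most like Myc and the 2 members of widest range. Some overlapping genes, Mondo genes and markers are named as well, where they limit a result. Alternatives were other pseudocounts, filters, scalings and size rule. Promoter windows are RefSeq's (GRCm38.p6), not the build of the files.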

Additional observations from a re-analysis of the deposited data

How the results depend on the processing

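No paired analysis was possible because the labels number no replicates and each group holds 1 library. A fit that pairs the genotypes by day was not run. The count of members past the size rule between the genotypes at day 3 became 1 with a pseudocount of 0.1 RPKM or median ratio rescaling (Mycl in each case). For day 5 against day 3 in the knockout it became 1 with a pseudocount of 5 RPKM or the same sum of RPKM and 3 with a pseudocount of 0.1 RPKM (Mycl added), and in wild type 1 with a pseudocount of 5 RPKM. For the change of the genotype difference it became 1 with a pseudocount of 0.1 RPKM, where Mxd1 reached -1.06. At a size rule of 0.5 the counts were 5 and 3 between the genotypes at day 5 and day 3, 5 for day 5 against day 3 in the knockout, and 4 for the change of the genotype difference.

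Median ratio rescaling moved the medians at day 3 to 0.51 (activated), -0.13 (repressed), -0.13 (cofactors), 0.067 (turnover) and 0.19 (Mlx targets), and those for day 5 against day 3 in wild type to 0.19 (activated), -0.16 (repressed), -0.057 (cofactors) and 0.10 (Mlx targets). As deposited, the median of all genes was 0.13 and 0.16 in these comparisons, against -0.02 and 0.01 after it.

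With the Mxd genes alone as antagonists the ratio of the Myc family to them was 1.09 in the knockout and 0.568 in wild type at day 5, and 0.471 in the knockout and 0.252 in wild type at day 3. With Mlx added to the 5 antagonists it was 0.518 and 0.349 at day 5 and 0.286 in the knockout at day 3. Leaving out Mxd4, chosen after seeing the data, gave 0.922 and 0.545 in the knockout and wild type at day 5 and 0.427 and 0.232 in the knockout and wild type at day 3. These choices kept the order of the 4 libraries. Rescaling turned the sign of small member differences, none of them between 2 libraries with a ratio interval that left out 1. Having 1 library in each group limits all values here, and few reads limit Mycn.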
